A study of Mus musculus with 6 samples.

Results

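A set of 10 cytokine receptor chains is described here, taken from the deposited expression table by gene symbol: Il10ra and Il10rb for IL-10, Ifngr1 and Ifngr2 for interferon-gamma, Ifnar1 and Ifnar2 for type I interferon, Il1rap and Il1r2 for IL-1, and Il6ra and Il6st for IL-6. All 10 symbols were found among the 25124 genes of the table, and 10 of 10 passed the filter on low values, which kept genes that reached 1 TPM in 3 or more of the 6 libraries. TPM is a transcript abundance scaled for gene length and sequencing depth. The deposited values summed to between 550163 and 559556 per library, less than the fixed sum that TPM has by definition. Levels and the filter are given on this deposited scale. The cells were RAW264.7, a mouse macrophage-like line, in the form of a control line that had been given a plasmid for the Cas9 nuclease with no guide RNA, as the counterpart of an E4BP4 knockout that was not analysed here. All 6 libraries come from this line, which was kept in 25 mM glucose with 10% serum. The 3 M0 libraries are of cells without IL-4, and the 3 M2 libraries are of cells given IL-4 at 10 ng/ml, a cytokine that drives macrophages toward alternative activation. The labels give no treatment time and do not say whether the line is a single clone.

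Most of these receptors work as pairs. IL-10 binds IL10RA, and IL10RB joins as a chain shared with the receptors of IL-22 and interferon-lambda. IFNGR1 and IFNAR2 hold their ligands most tightly, while IFNGR2 and IFNAR1 complete the signalling complexes. IL6RA binds IL-6, and IL6ST (gp130) carries the signal for the whole IL-6 family. Janus kinases on the inner ends of these chains phosphorylate STAT proteins, among them STAT3 for IL-10 and IL-6 and STAT2, which works with IRF9, for type I interferon. IL-1 works differently. IL1RAP is the accessory chain that joins the signalling receptor IL1R1, and IL1R2 is a decoy that binds IL-1, and can take up IL1RAP, without signalling. In macrophages, IL-10 restrains inflammatory gene expression and interferon-gamma primes it.

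Of the 10 genes, 4 lie side by side on mouse chromosome 16 (build mm10), in the order Ifnar2, Il10rb, Ifnar1 and Ifngr2. They span chr16:91372783-91564007, or 191 kb, and are the only 4 protein-coding genes that RefSeq places there. Of these neighbours, Ifngr2 and Il10rb rose in M2 cells and Ifnar1 and Ifnar2 did not pass the test, as given below with their values. RefSeq's promoter table (build GRCm38.p6) held 8 of the 10 chains, all but Il10ra and Il10rb. The 250 bases before the start are printed for Ifngr2, which rose, and for Ifnar2 and Ifnar1 as its neighbours that did not pass. Those of Il1rap, on the same chromosome, are shown for the largest rise of the 10 chains. Capitals mark matches to a motif. Each line runs 5′ to 3′ on the plus strand, which is the strand of all 4 genes.
Ifngr2, chr16:91546809-91547058: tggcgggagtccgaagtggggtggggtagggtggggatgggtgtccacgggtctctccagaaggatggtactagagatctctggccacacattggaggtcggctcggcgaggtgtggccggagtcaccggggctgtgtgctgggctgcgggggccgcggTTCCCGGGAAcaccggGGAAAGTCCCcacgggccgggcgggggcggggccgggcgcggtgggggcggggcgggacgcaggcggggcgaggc
Ifnar2, chr16:91372533-91372782: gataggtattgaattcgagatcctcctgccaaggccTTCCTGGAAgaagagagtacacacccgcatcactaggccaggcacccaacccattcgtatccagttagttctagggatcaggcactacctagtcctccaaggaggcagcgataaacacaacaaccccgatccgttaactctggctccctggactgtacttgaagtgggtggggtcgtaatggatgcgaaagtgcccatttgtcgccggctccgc
Ifnar1, chr16:91484965-91485214: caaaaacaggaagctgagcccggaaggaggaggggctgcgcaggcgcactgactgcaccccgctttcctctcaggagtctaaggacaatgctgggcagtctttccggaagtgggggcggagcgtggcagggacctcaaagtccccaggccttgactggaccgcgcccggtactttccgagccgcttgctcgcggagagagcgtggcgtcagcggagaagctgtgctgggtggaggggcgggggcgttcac
Il1rap, chr16:26581455-26581704: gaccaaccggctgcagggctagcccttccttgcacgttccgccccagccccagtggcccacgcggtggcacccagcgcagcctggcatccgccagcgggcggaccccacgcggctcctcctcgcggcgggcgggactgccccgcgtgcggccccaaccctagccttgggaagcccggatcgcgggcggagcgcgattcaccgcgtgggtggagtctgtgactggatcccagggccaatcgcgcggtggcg

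The motifs were searched on both strands. They were TTC and GAA with 4 bases between them (the spacing preferred by STAT6, the factor that IL-4 activates), TTCNNNGAA (the spacing of other STAT proteins), GAAA and GAAA with 2 bases between them (a core of interferon response elements), and GGG and TTCC with 3 bases between them (a loose NF-kappaB form). No matches in these windows overlapped. Ifngr2 was the only one of the 8 chains with the 4-base spacing, TTCCCGGGAA at 91 to 82 bases before its start, and 5.85% of all 32851 promoters hold one. Ifngr2 also had the NF-kappaB form, GGAAAGTCCC at 75 to 66 bases, which 4.65% of all promoters hold. Ifnar2 had the 3-base spacing, TTCCTGGAA at 214 to 206 bases, and so did Il1r2, TTCAAGGAA at 111 to 103 bases, against 7.02% of all promoters. The table's start for Il1r2 lies 1379 bases from that of the model whose expression was measured. The interferon form, in 2.98% of all promoters, was in none of the 8. The promoters of Ifnar1 and Il1rap held no match, which says only that these letters are not in this window. No binding was measured, so a match is a stretch of letters and not a site in use. The windows of Ifngr2 and Il1rap were rich in G and C, at 74.0% and 74.4%, against 65.6% for Ifnar1, 54.0% for Ifnar2 and a median of 52.4% over all promoters.

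Whole reads worked out from TPM and model length numbered between 15615639 and 19511192 per library, and each chain rested on 49 to 2392 reads per library. The titles of all M0 libraries, and of no M2 library, mark them as re-analysed, so a batch that the mark may stand for and the IL-4 treatment cannot be told apart. The labels do not say whether replicates were separate cultures. The p-values therefore reflect the spread between these libraries alone, which may be technical. The cells had the markers of their label: 10 of 10 macrophage genes were above the filter, with a summed TPM of 3926 to 4417 in M0 and 3452 to 3761 in M2. Of these 10 genes, 2 rose, 3 fell and 5 did not pass, among them Adgre1 with a rise (2.23-fold, adjusted p = 3.04e-04, limma) and Ptprc with a fall (log2 -0.37, adjusted p = 0.00926, limma). Of the listed genes of the IL-4 response, Mgl2 was 4.13-fold and Slc7a2 13.0-fold higher in M2. Arg1, Mrc1 and Socs1 were higher in M2 too, but passed the filter only through M2 libraries. Of 24 markers of fibroblasts, lymphocytes, neutrophils, epithelium and endothelium, 23 stayed under 1 TPM in every library and 4 were at 0 in all, the exception being S100a8 at 5.29 ± 0.753 (SD, n = 3) and 4.81 ± 0.773 TPM (SD, n = 3). Their summed TPM was 6.57 to 7.60 in M0 and 5.87 to 7.29 in M2. M2 replicate 3 stood apart by gene length. Relative to the mean of the other M2 libraries, its log2(TPM + 1) had a median difference of 0.10 over the 2801 shortest genes (1599 bases or less) and of -0.27 over the 2800 longest (4086 bases or more).

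Across all 11202 genes tested, 4899 passed at an adjusted p under 0.05 (limma, Benjamini-Hochberg adjustment over all tested genes), which is 43.7%, with 20.1% higher and 23.7% lower in M2. Among the chains 5 of 10 passed, a share near that background. Il1rap, Ifngr2 and Il10rb rose, and Il10ra and Il1r2 fell. The median log2 fold change of the 10 was -0.12, beside -0.03 for all genes tested. The 3 M0 and 3 M2 values did not overlap for 8 of the 10 chains, 3 higher and 5 lower in M2, where 55.9% of all tested genes did not overlap, 25.1% higher and 30.8% lower. In bulk RNA, fewer cells that express a chain and less of its RNA per cell cannot be told apart.

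**Figure D1:**
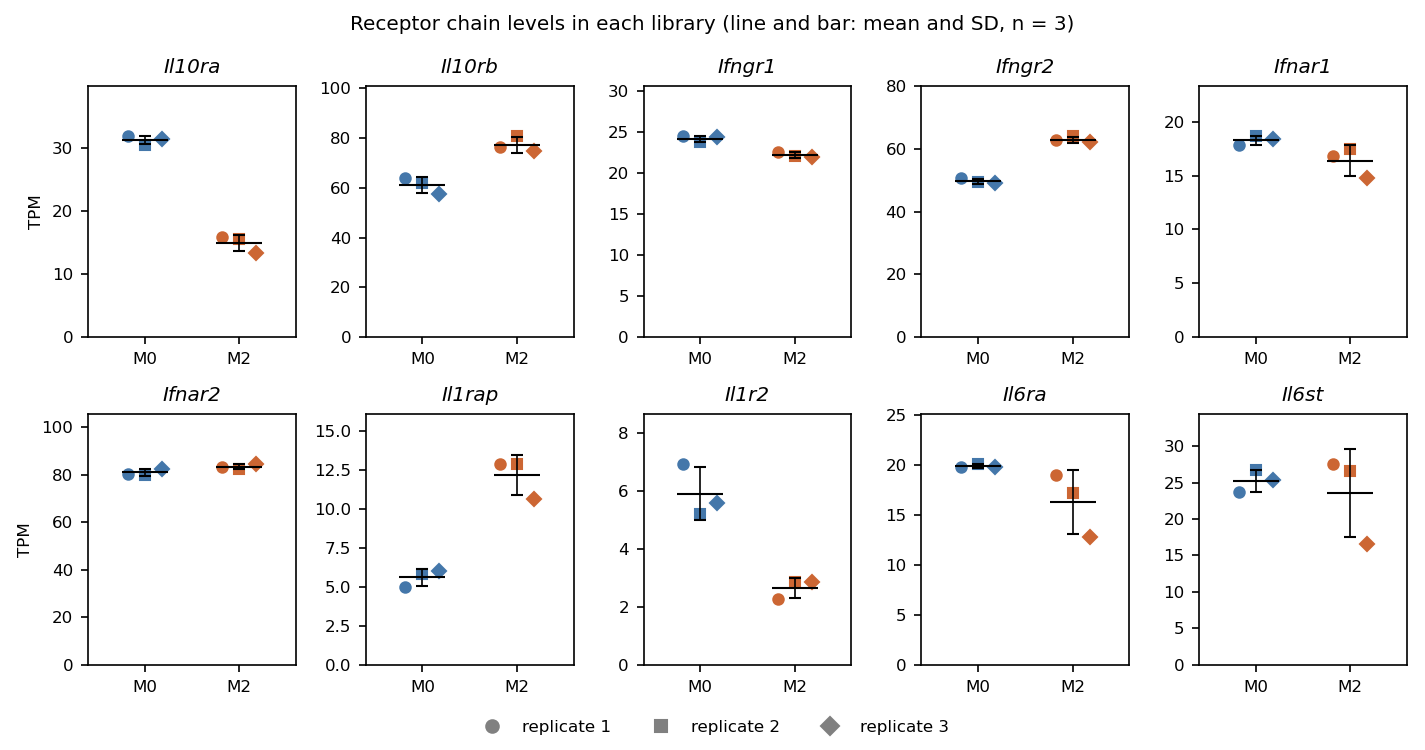
TPM (y axis, each panel from 0) of each receptor chain in the 3 M0 and 3 M2 libraries, with a point per library, its shape giving the replicate, and a line and bar for the mean and SD. Il10ra and Il1r2 lie lower and Il1rap higher in all 3 M2 libraries, and M2 replicate 3 is the lowest library for Il6ra and Il6st.

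In the IL-10 receptor the chains changed in opposite directions: the ligand-binding chain fell and the shared chain rose. Il10ra (chr9:45253837-45269149, minus strand) was at 31.79, 30.41 and 31.35 TPM in M0 replicates 1, 2 and 3, and at 15.77, 15.49 and 13.34 TPM in M2 replicates 1, 2 and 3. The highest M2 library was far below the lowest M0 library. The means were 31.2 ± 0.702 (SD, n = 3) and 14.9 ± 1.33 TPM (SD, n = 3), so Il10ra was 2.10-fold lower in M2. Its log2 fold change on the log2(TPM + 1) scale, on which every fitted change below is given, was -1.02 (SE 0.076, 95% interval -1.20 to -0.85, adjusted p = 2.20e-05, limma). This was the lowest adjusted p among the chains.

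Il10rb (chr16:91406235-91425834, plus strand), the chain shared between several receptors, was at 63.80, 61.83 and 57.65 TPM in M0 and at 76.36, 80.66 and 74.68 TPM in M2. The lowest M2 library lay above the highest M0 library. The means were 61.1 ± 3.14 (SD, n = 3) and 77.2 ± 3.08 TPM (SD, n = 3), 1.26-fold higher in M2, with a log2 fold change of 0.33 (SE 0.060, adjusted p = 0.00233, limma). A predicted read-through gene on the same strand, Gm21970, shares 569 exon bases with Il10rb, or 30.8% of its model, and reads in that part cannot be assigned to one of them.

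With one chain down and the other up, the ratio of Il10ra to Il10rb in TPM moved further than either chain. It was 0.498, 0.492 and 0.544 in the M0 libraries and 0.206, 0.192 and 0.179 in the M2 libraries. The groups did not overlap. The mean ratio went from 0.511 ± 0.0283 (SD, n = 3) to 0.192 ± 0.0139 (SD, n = 3), a 2.66-fold change of the ratio. With 3 libraries against 3, the two-sided exact permutation test over 20 assignments cannot go below p = 0.10, which was its value here (adjusted p = 0.125 over 5 pairs), so no pair could pass.

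In the pair for interferon-gamma, the signalling partner chain rose and the binding chain did not pass. Ifngr2 (chr16:91547059-91564007, plus strand) was at 50.67, 49.49 and 49.05 TPM in M0 and at 62.73, 64.07 and 62.28 TPM in M2. The libraries of each group lay close together, and the groups were far apart. The means were 49.7 ± 0.840 (SD, n = 3) and 63.0 ± 0.929 TPM (SD, n = 3), a 1.27-fold rise with a log2 fold change of 0.34 (SE 0.051, adjusted p = 9.48e-04, limma). Its promoter is the first of those printed above.

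Ifngr1 (chr10:19591949-19610227, plus strand), the main binding chain, was at 24.49, 23.81 and 24.43 TPM in M0 and at 22.59, 22.06 and 21.91 TPM in M2. All 3 M2 values were below all 3 M0 values, by a small step. The means were 24.2 ± 0.378 (SD, n = 3) and 22.2 ± 0.356 TPM (SD, n = 3), and the log2 fold change of -0.12 (SE 0.059, 95% interval -0.26 to 0.01) did not pass the test (adjusted p = 0.121, limma). It passed at an adjusted p of 0.0413 (limma) once the length trend described above was removed from every library, an alternative added after the data were seen. The ratio of Ifngr1 to Ifngr2 was 0.483, 0.481 and 0.498 in M0 and 0.360, 0.344 and 0.352 in M2. Its groups did not overlap, and the mean went from 0.487 ± 0.00926 (SD, n = 3) to 0.352 ± 0.00787 (SD, n = 3), a 1.38-fold change (exact permutation p = 0.10, adjusted p = 0.125).

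Neither chain of the type I interferon receptor passed. Ifnar2 (chr16:91372783-91394043, plus strand) was at 80.22, 80.10 and 82.57 TPM in M0 and at 83.17, 82.33 and 84.58 TPM in M2. The groups overlapped, since M0 replicate 3 lay above M2 replicate 2. The means were 81.0 ± 1.39 (SD, n = 3) and 83.4 ± 1.14 TPM (SD, n = 3), with a log2 fold change of 0.04 (95% interval -0.07 to 0.15, adjusted p = 0.521, limma). Ifnar2 is known to make a soluble and a membrane-bound receptor, and its level depends on the transcript model. The TPM table uses a short model of 1160 bases, whose coding sequence in GENCODE M21 (build GRCm38) gives 248 residues. The authors' deposited table of M0 against M2 uses a long model of 3028 bases, which gives 513 residues, and lists a log2 fold change of 0.10 with an adjusted p of 0.331. The models share 972 exon bases, or 88.4% of the short one, so the TPM does not separate the forms. Gm21970 also shares 315 exon bases, 28.7%, with the short model.

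Ifnar1 (chr16:91485215-91510522, plus strand) was at 17.84, 18.66 and 18.40 TPM in M0 and at 16.82, 17.48 and 14.76 TPM in M2. All M2 values were below all M0 values, and M2 replicate 3 was the lowest. The means were 18.3 ± 0.416 (SD, n = 3) and 16.4 ± 1.42 TPM (SD, n = 3), with a log2 fold change of -0.16 (SE 0.078, 95% interval -0.33 to 0.02, adjusted p = 0.136, limma). The ratio of Ifnar1 to Ifnar2 was 0.222, 0.233 and 0.223 in M0 and 0.202, 0.212 and 0.175 in M2, without overlap. Its mean went from 0.226 ± 0.00596 (SD, n = 3) to 0.196 ± 0.0196 (SD, n = 3), which is -0.21 as a log2 difference (exact permutation p = 0.10, adjusted p = 0.125). Ifnar1 has the longest model of the 10 and Ifnar2 the shortest. The difference was -0.12 without M2 replicate 3 and -0.06 with the length trend removed.

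**Figure D2:**
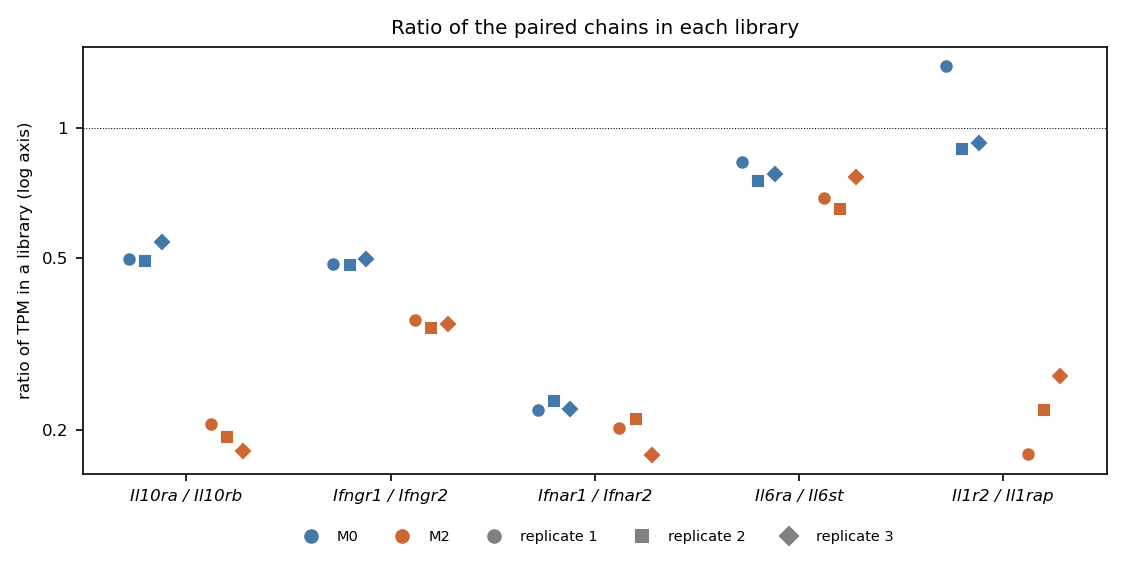
Ratio of the TPM of paired chains (y axis, log scale) in each M0 and M2 library for the 5 pairs, with a point per library. The groups are apart for 4 pairs, with the widest gap for Il1r2 over Il1rap (mean 1.07 in M0 and 0.222 in M2), and overlap for Il6ra over Il6st. No such share over other gene pairs is given here. Of single tested genes, 55.9% do not overlap.

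The IL-1 chains changed in opposite directions: the accessory chain rose and the decoy fell. Il1rap (chr16:26581705-26717748, plus strand), the accessory chain, was at 4.984, 5.843 and 6.038 TPM in M0 and at 12.90, 12.91 and 10.68 TPM in M2. Each M2 library was well above each M0 library, M2 replicate 3 being the lowest of them. The means were 5.62 ± 0.561 (SD, n = 3) and 12.2 ± 1.28 TPM (SD, n = 3), a 2.16-fold rise with a log2 fold change of 0.99 (SE 0.10, 95% interval 0.75 to 1.23, adjusted p = 1.33e-04, limma). Of the 10 chains only Il1rap had a rise past 2-fold.

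The measured Il1rap model codes for 570 residues, and the gene is also known to make a shorter secreted form, 360 residues in the annotation, which a single model per gene does not separate. A predicted antisense gene, Gm20319, shares 353 exon bases with Il1rap, or 7.81% of its model. It was at 2.808, 4.375 and 4.865 TPM in M0 and at 8.551, 10.029 and 6.669 TPM in M2, higher in every M2 library as Il1rap was. The sources used here do not give the strand setting of the counting, so reads in the shared part cannot be told apart.

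Il1r2 (chr1:40084714-40125230, plus strand), the decoy, was at 6.941, 5.219 and 5.589 TPM in M0 and at 2.272, 2.865 and 2.851 TPM in M2. These are low counts, at 152, 110 and 103 reads in M0 and 49, 60 and 69 in M2. M0 replicate 1 was the highest library, and no M2 library reached 3 TPM. The means were 5.92 ± 0.906 (SD, n = 3) and 2.66 ± 0.338 TPM (SD, n = 3), so Il1r2 was 2.22-fold lower in M2, with a log2 fold change of -0.91 (SE 0.12, 95% interval -1.19 to -0.64, adjusted p = 4.63e-04, limma). The size depended on the scale: it was -0.43 on the authors' log2-scale values, with an adjusted p of 2.99e-04 (limma), and -1.13 as the log2 fold change in the authors' deposited table.

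The ratio of Il1r2 to Il1rap was 1.39, 0.893 and 0.926 in the M0 libraries and 0.176, 0.222 and 0.267 in the M2 libraries. In M0 the decoy and the accessory chain were at similar levels, and in M2 the accessory chain exceeded the decoy in all 3 libraries. The mean ratio went from 1.07 ± 0.279 (SD, n = 3) to 0.222 ± 0.0454 (SD, n = 3). Taken from the mean log2 ratios, this was a 4.80-fold change, the widest of the 5 pairs (exact permutation p = 0.10, adjusted p = 0.125). On the authors' log2-scale values the log2 difference was -1.28 in place of -2.26. The signalling chain Il1r1 was close to undetected: it was at 0.0483 ± 0.0215 TPM (SD, n = 3) in M0, from 2, 5 and 3 reads, and at 0.120 ± 0.0498 TPM (SD, n = 3) in M2, from 13, 7 and 7 reads. It was under the filter and was not tested.

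Both IL-6 receptor chains were lowest in M2 replicate 3, and neither passed. Il6ra (chr3:89869324-89913196, minus strand), which binds IL-6, was at 19.77, 20.12 and 19.81 TPM in M0 and at 18.99, 17.25 and 12.79 TPM in M2. All M2 values were below all M0 values, but replicate 3 was far below the others. The means were 19.9 ± 0.195 (SD, n = 3) and 16.3 ± 3.20 TPM (SD, n = 3), and the log2 fold change of -0.29 (SE 0.12, 95% interval -0.57 to -0.00) did not pass (adjusted p = 0.0916, limma). Without M2 replicate 3 it was -0.13 (adjusted p = 0.107, limma), and without M2 replicate 1 it was -0.40 and passed (adjusted p = 0.0299, limma). It also passed with the length trend removed (-0.26, adjusted p = 0.0444, limma). A gene on the opposite strand, Gm42809, shares 208 exon bases, 6.22% of the Il6ra model.

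Il6st (chr13:112464070-112506860, plus strand), the common signal-carrying chain, was at 23.73, 26.65 and 25.31 TPM in M0 and at 27.54, 26.64 and 16.63 TPM in M2. M2 replicate 1 lay above the M0 range, replicate 2 at the top of it and replicate 3 far below it. The means were 25.2 ± 1.46 (SD, n = 3) and 23.6 ± 6.05 TPM (SD, n = 3), with a log2 fold change of -0.12 (SE 0.16, 95% interval -0.50 to 0.25, adjusted p = 0.565, limma). Without M2 replicate 3 the sign turned, to 0.10 (27.1 against 25.2 TPM, adjusted p = 0.215, limma). The ratio of Il6ra to Il6st was 0.833, 0.755 and 0.782 in M0 and 0.690, 0.648 and 0.769 in M2, with overlap (exact permutation p = 0.20, adjusted p = 0.20). Its mean was 0.790 ± 0.0394 (SD, n = 3) in M0 and 0.702 ± 0.0618 (SD, n = 3) in M2.

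Against the mean of the other M2 libraries, replicate 3 differed by -0.67 for Il6st and -0.47 for Il6ra on the log2(TPM + 1) scale, below the medians of -0.27 for genes of 4086 bases or more and -0.14 for genes of 2645 to 4085 bases, the ranges that hold Il6st and Il6ra. For the other 8 chains this difference lay between -0.25, for Il1rap, and 0.11, for Il1r2. Without replicate 3, Il10ra was 2.0-fold lower, Il1rap 2.30-fold higher and Il1r2 2.30-fold lower. The part of RNA quality or library making in the low values of replicate 3 was not tested.

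**Figure D3:**
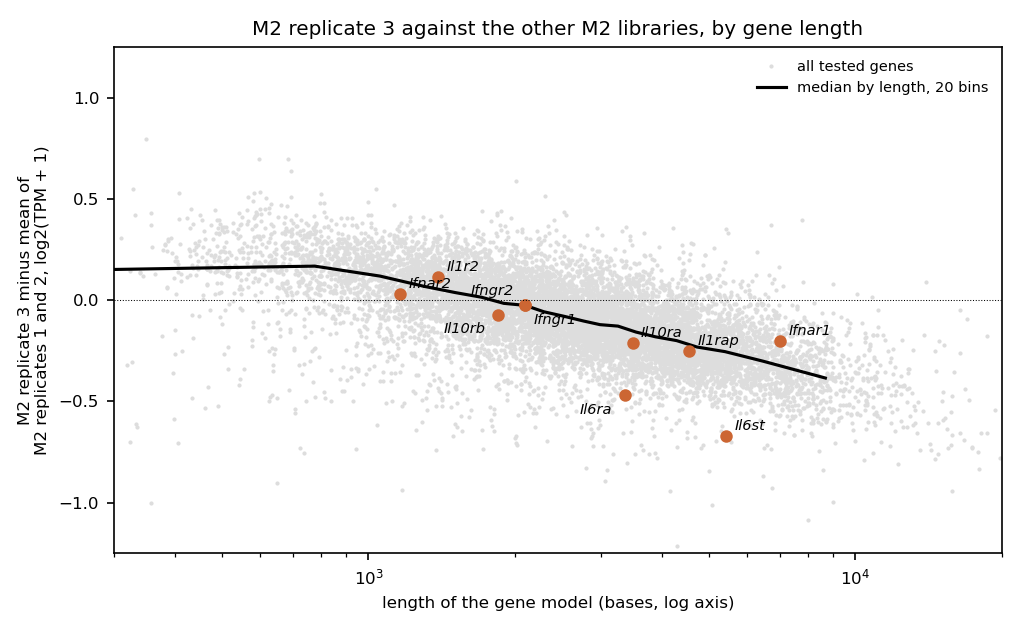
Difference of M2 replicate 3 from the mean of M2 replicates 1 and 2 in log2(TPM + 1) (y axis) against the length of the gene model (x axis, log scale), with grey points for all tested genes, a black line for the median by length and orange points for the chains. The line falls with length, and Il6st (-0.67) and Il6ra (-0.47) lie below it.

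**Figure D4:**
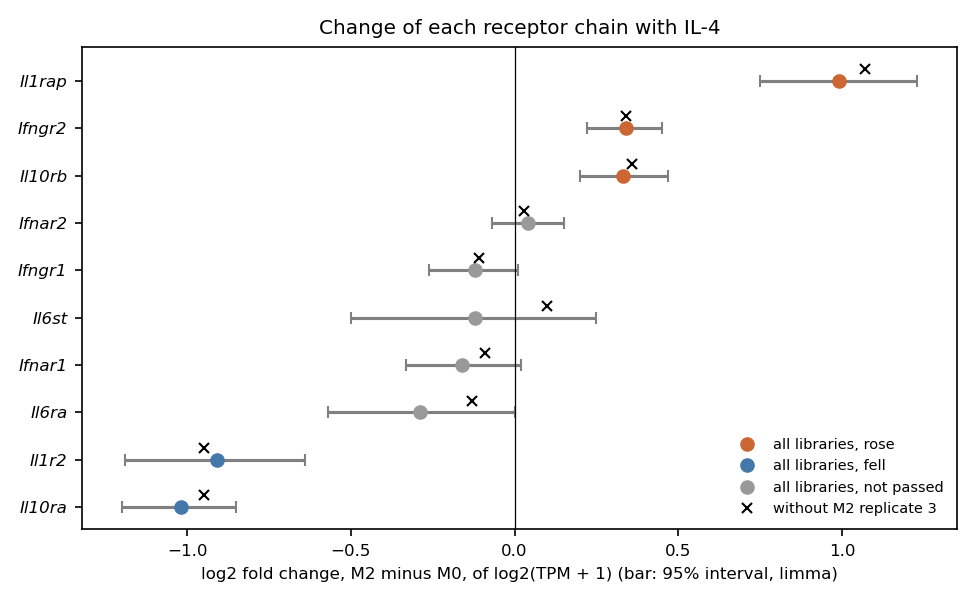
Log2 fold change, M2 minus M0, of log2(TPM + 1) for the 10 chains (x axis), with its 95% interval as a bar, colours for the result and a cross for the value without M2 replicate 3. Il1rap lies highest at 0.99 and Il10ra lowest at -1.02, and the cross of Il6st lies on the other side of 0 from its point.

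The chains can be ordered by TPM, but the order rests on the model length that each value is divided by. The Ifngr2 model used for TPM has 2096 bases, against 3708 exon bases for its matched transcript in GENCODE M21. For Ifnar1 these lengths are 7000 and 3909, and for Il6st 5433 and 8678. In M0 the order was Ifnar2, Il10rb, Ifngr2, Il10ra, Il6st, Ifngr1, Il6ra, Ifnar1, Il1r2 and Il1rap, from 81.0 to 5.62 TPM. Neighbours in that order overlapped between libraries for Il6st with Ifngr1 and for Il1r2 with Il1rap. In M2 it was Ifnar2, Il10rb, Ifngr2, Il6st, Ifngr1, Ifnar1, Il6ra, Il10ra, Il1rap and Il1r2, from 83.4 to 2.66 TPM. There Il6st overlapped with Ifngr1, Ifnar1 with Il6ra, and Il6ra with Il10ra. On these models, the shared or signal-completing chains Il10rb and Ifngr2 were above their binding partners in both groups. In the type I interferon pair the binding chain Ifnar2, on its short model, was the higher one. Il10ra moved from above 68.8% of the tested genes in M0 to above 48.0% in M2. Il1rap moved from 22.4% to 42.5%, and Il1r2 from 23.4% to 12.1%.

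The authors' deposited table, made from the same libraries and so no independent evidence, lists 5 of the 10 chains under an adjusted p of 0.05, 3 higher and 2 lower, and these are the 5 that passed here. Its log2 fold changes for these are -1.03 for Il10ra, 0.38 for Il10rb, 0.39 for Ifngr2, 1.15 for Il1rap and -1.13 for Il1r2. Its adjusted p-values for the other 5 chains run from 0.0614 for Il6ra to 0.738 for Il6st.

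The genes that act with these receptors were described by 7 lists of 74 genes in all, of which 73 were in the table and 44 were tested. Of the 44, 8 rose (18.2%, beside 20.1% of all genes) and 19 fell (43.2%, beside 23.7%), and their median log2 fold change was -0.14. The lists were chosen with earlier results of these data known, so these shares describe the lists and test nothing. Of the 8, Lifr and Socs1 passed the filter on low values only through M2 libraries. The count that rose was 5 without M0 replicate 1, 5 without M0 replicate 3 and 11 without M2 replicate 3. With IL-4, Il10, Jak2 and Socs1 rose, and Stat2, Stat3 and Irf9 fell.

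Of the ligands, 6 of 20 in the table were tested, and 2 rose, 2 fell and 2 did not pass (median -0.14). Il10, which signals through Il10ra and Il10rb, was at 2.885, 1.930 and 1.569 TPM in M0 and at 5.808, 5.675 and 5.354 TPM in M2. All M2 libraries were above all M0 libraries, and the mean was 2.64-fold higher (adjusted p = 4.62e-04, limma). Counts were low, at 59, 38 and 27 reads in M0 and 117, 111 and 121 in M2. The size depended on the scale: the log2 fold change was 1.10, against 0.51 on the authors' log2-scale values and 1.45 by limma-voom on recovered reads. Il10 thus rose in the libraries where Il10ra fell. Il1rn, the antagonist that occupies IL1R1, rose from 8.31 ± 0.682 (SD, n = 3) to 10.1 ± 0.234 TPM (SD, n = 3, adjusted p = 0.0302, limma), a call lost under 5 of the 15 alternatives. Ebi3, a subunit of IL-27, fell from 27.2 ± 0.959 (SD, n = 3) to 18.2 ± 0.448 TPM (SD, n = 3, adjusted p = 1.93e-04, limma). Il18 fell from 8.21 ± 0.871 (SD, n = 3) to 6.12 ± 0.397 TPM (SD, n = 3, adjusted p = 0.0143, limma), a call lost under 3 alternatives. Osm, an IL-6 family cytokine, was at 4.98 ± 0.896 (SD, n = 3) and 4.37 ± 0.545 TPM (SD, n = 3) and did not pass (adjusted p = 0.372, limma). Ifng, Ifnb1, Il1a, Il1b and Il6 were under the filter, at means of 0.360 TPM or less in each group.

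Of 17 other chains of the same families, 4 were tested: 1 rose, 1 fell and 2 did not pass (median 0.15). Lifr, which pairs with IL6ST for the cytokine LIF, rose from 0.593 ± 0.118 (SD, n = 3) to 1.63 ± 0.529 TPM (SD, n = 3, adjusted p = 0.00737, limma), with M2 replicate 3 the lowest M2 library at 1.017. It was under 1 TPM in all M0 libraries and passed the filter only through M2, so it was tested because it was higher there. Sigirr, a chain that dampens IL-1 family signalling, fell from 9.16 ± 0.919 (SD, n = 3) to 6.23 ± 0.659 TPM (SD, n = 3, adjusted p = 0.00498, limma). Il18rap, an IL-18 receptor chain, was at 17.5 ± 0.522 (SD, n = 3) and 19.7 ± 2.60 TPM (SD, n = 3) and did not pass (adjusted p = 0.220, limma), though it did without M2 replicate 3 (0.26 in log2, adjusted p = 0.00653, limma). Osmr, the oncostatin M receptor chain, was under the filter at 0.0273 and 0.0173 TPM.

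Of the 4 Janus kinases, 1 rose and 2 fell. Jak2, which serves IFNGR2, was at 10.70, 12.79 and 11.56 TPM in M0 and at 33.92, 37.37 and 30.09 TPM in M2. The groups lay far apart, and Jak2 was 2.89-fold higher (log2 1.45, adjusted p = 1.15e-05, limma). Tyk2, which serves IFNAR1 and IL10RB, fell from 15.9 ± 1.12 (SD, n = 3) to 10.5 ± 1.71 TPM (SD, n = 3, adjusted p = 0.00421, limma). Jak3, which serves the common gamma chain and none of the 10 chains, fell from 12.7 ± 0.280 (SD, n = 3) to 7.59 ± 0.838 TPM (SD, n = 3, adjusted p = 4.62e-04, limma). Jak1, which serves a chain in each of the STAT-linked pairs, was at 37.8 ± 3.09 (SD, n = 3) and 34.8 ± 2.53 TPM (SD, n = 3) and did not pass (adjusted p = 0.277, limma).

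Among the transcription factors downstream, Stat2, Stat3 and Irf9 fell. Stat2 went from 10.6 ± 0.396 (SD, n = 3) to 6.64 ± 0.937 TPM (SD, n = 3, adjusted p = 0.00164, limma). Stat3 went from 19.9 ± 0.565 (SD, n = 3) to 14.1 ± 1.31 TPM (SD, n = 3, adjusted p = 0.00180, limma). Irf9, the DNA-binding partner of STAT2, went from 21.0 ± 1.22 (SD, n = 3) to 13.9 ± 0.682 TPM (SD, n = 3, adjusted p = 4.20e-04, limma). These 3 had no overlap between groups, where 55.9% of all tested genes had none, 30.8% being lower in M2.

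**Figure D5:**
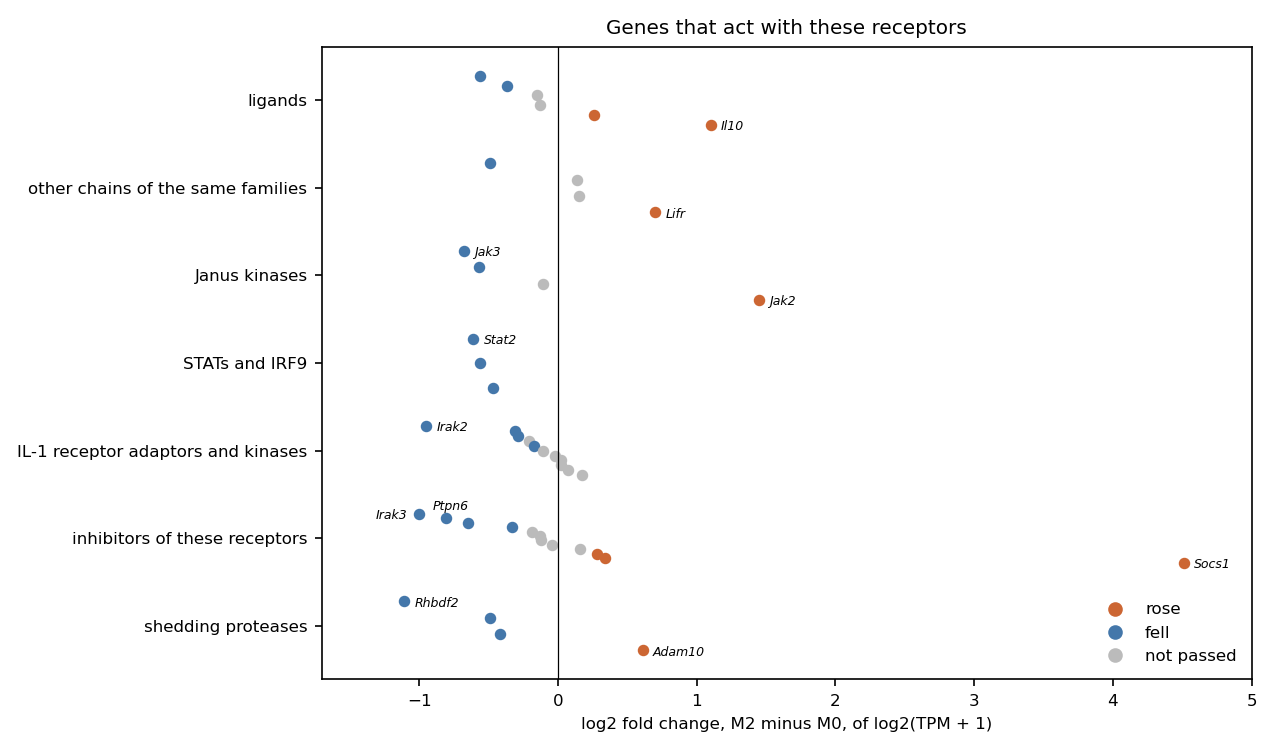
Log2 fold change, M2 minus M0, of log2(TPM + 1) (x axis) of the 44 tested genes in 7 lists (rows), with a point per gene coloured by its result. Socs1 lies farthest right at 4.51, Jak2 stands apart from the other Janus kinases at 1.45, and Stat2, Stat3 and Irf9 lie to the left of 0.

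Of 11 adaptors and kinases of the IL-1 receptor, 4 fell and 7 did not pass (median -0.11). Irak2, a kinase of the receptor complex, fell 2.0-fold, from 25.7 ± 1.66 (SD, n = 3) to 12.9 ± 0.549 TPM (SD, n = 3, adjusted p = 2.67e-05, limma). Irak4 and Tollip fell by less, with log2 changes of -0.31 (adjusted p = 0.00525, limma) and -0.29 (adjusted p = 0.0134, limma), and for Tollip the call was lost when M0 replicate 2 was left out (adjusted p = 0.0635, limma).

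Of 12 inhibitors of these receptors, 3 rose, 4 fell and 5 did not pass (median -0.13). Socs1, an inhibitor of Janus kinases that is also in the list of IL-4 response genes, was at 0.889, 1.249 and 1.118 TPM in M0 and at 46.34, 44.00 and 48.92 TPM in M2. It was 42.8-fold higher (adjusted p = 4.29e-08, limma). Socs1 passed the filter on low values only through M2 libraries, where it was high. Ptpn6, the phosphatase SHP-1, fell from 263 ± 11.7 (SD, n = 3) to 150 ± 1.30 TPM (SD, n = 3, adjusted p = 1.17e-05, limma), and Irak3, which restrains IL-1 receptor signalling, fell 2.31-fold (adjusted p = 1.95e-04, limma). The list therefore held changes in both directions.

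Proteases that cut receptor chains from the cell surface had 4 of 6 members tested, of which 1 rose and 3 fell (median -0.46). Adam17, which sheds IL6RA and IL1R2, fell from 124 ± 6.33 (SD, n = 3) to 87.9 ± 7.02 TPM (SD, n = 3, adjusted p = 7.11e-04, limma). Rhbdf2, which helps ADAM17 mature, fell 2.23-fold, from 30.7 ± 0.668 (SD, n = 3) to 13.8 ± 1.97 TPM (SD, n = 3, adjusted p = 5.24e-05, limma). Adam10 rose from 51.2 ± 4.64 (SD, n = 3) to 78.9 ± 9.29 TPM (SD, n = 3, adjusted p = 0.00113, limma). Shedding itself was not measured.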

How the data were processed

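Poly(A) RNA was sequenced in 3 M0 and 3 M2 libraries, grouped and numbered by their titles. Per the submitters' processing notes, the tools were bcl2fastq, STAR 2.7.5a, HOMER 4.11.1 and DESeq2, on build mm10. The sources used here do not give the annotation, the strand setting or the handling of multiply mapped reads. The authors deposited TPM values for 25124 genes, 1 model each, and a second table with log2-scale values per library (read as such from their range), log2 fold changes, p-values and adjusted p-values, per the file headers. TPM times model length gave whole reads for 100.0% of the values fine enough to tell (within 0.1), which supplied the depths. Within each group no pair of libraries was a duplicate, with a chi-square per degree of freedom of 2.18 or more. It was 19.6 for M2 replicate 3 against each of the other M2 libraries, and 5.73 or less for the other pairs. Pairs of an M0 and an M2 library were not compared.

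The main test was limma 3.58.1 in R 4.3.3 on log2(TPM + 1) by group, with a variance trend, over the 11202 genes that reached 1 TPM in 3 or more libraries. Ratios of paired chains were compared on the log2 scale by a two-sided exact permutation test with adjustment over 5 pairs. The fold change of a ratio was taken from the difference of the mean log2 ratios. Named were all 10 chains, the 3 tested genes of lowest adjusted p in each list, and 15 ligands, chains, kinases and STAT genes whatever their result. A further gene of that rule and a list of target genes are not reported here. Members and lists were chosen with earlier results of these data known. Other motifs searched at first over a longer window (AP-1, Ets, cyclic AMP element and E-box) were not kept and are not reported. Alternatives were another pseudocount, 2 filters, median-ratio scaling, the authors' log2-scale values, limma-voom on recovered reads, no variance trend, a replicate block, and leaving out each library. Removal of the length trend (a lowess curve per library) was chosen after seeing the data.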

Additional observations from a re-analysis of the deposited data

How the results depend on the processing

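Il10ra, Il10rb, Ifngr2, Il1rap and Il1r2 kept their direction and passed under 15 of 15 alternatives, with their highest adjusted p 0.0153 (limma, for Il10rb). The count of chains that fell went from 2 to 4 with the length trend removed, where Ifngr1 passed at -0.12 (adjusted p = 0.0413, limma) and Il6ra at -0.26 (adjusted p = 0.0444, limma). Without M2 replicate 1, Il6ra passed at -0.40 (adjusted p = 0.0299, limma), and over the libraries left out its value ran from -0.40 to -0.13. Il6st turned to 0.10 without M2 replicate 3 (adjusted p = 0.215, limma), and over the libraries left out it ran from -0.25 to 0.10. The cause was not tested. Ifnar1 and Ifnar2 passed under none of the 15. With a library left out, 3556 to 5694 genes passed in all, and 5 to 11 pathway genes rose. Of 358 values for 24 named pathway genes under these alternatives, 346 stayed on the same side of the threshold, 9 lost it, 3 gained it and 0 reversed, over 4 genes. With the replicate number as a block, 4870 genes, 5 chains and 25 pathway genes passed and no chain's call changed. Deviations of same-numbered libraries correlated across genes at -0.03, 0.21 and 0.03, and those of differently numbered ones at -0.20 to 0.17. Deviations from a mean of 3 libraries depend on each other, so these values cannot decide whether the numbers pair the samples. Il1r2, at 49 to 152 reads per library, has the least depth of the chains.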
